A study of Mus musculus with 59 samples.

Results

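The immediate early genes described here were Fos, Fosb, Jun, Junb, Atf3, Egr1, Klf6, Nr4a1, Ier2 and Dusp1, 10 of the 52060 genes listed across the deposited gene tables. They were chosen by name, as genes whose transcripts can change within minutes of a stimulus, with earlier results of these data known. Their level was read in every library whose group was known. All 10 passed the filter on low values in every comparison. The libraries were RNA-seq libraries of cells sorted from the bone marrow of C57BL/6 mice. KLS cells (lineage-negative, Sca-1-positive and c-Kit-positive) are a mixed population in which the stem cells lie. GMPs, or granulocyte-monocyte progenitors, are committed to the myeloid lineage. Every group, WT included, carried 1 Cre allele (Cre +/-). WT animals were Daxx +/+, Daxx-KO animals were Daxx F/F, and animals of the double knockout (DKO) were Daxx F/F Pu.1 F/F. Daxx is a chaperone of histone H3.3, and Pu.1, encoded by Spi1, is a transcription factor of the myeloid and B lineages. A separate Pu.1 line compared Pu.1 +/+ with Pu.1 F/F (Pu.1-KO).

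KLS and GMP libraries with a time on their label came from the Mx1Cre line, at 3 or 24 weeks post induction (w.p.i.). In that line pI:pC, a double-stranded RNA mimic that raises interferon, induces the Cre. The Pu.1 line was also Mx1Cre at 3 w.p.i. The labels of the remaining KLS and GMP libraries carry neither a line nor a time, and these libraries are called untimed here. The study's methods describe separate RNA-seq protocols for cells of transplanted animals and for steady-state cells, whereas the labels name a single protocol. The protocol behind each library thus cannot be read from its label. The study sorted KLS cells and GMPs from transplanted animals too, and no label says whether the untimed libraries came from them. Its methods describe RNA-seq of these populations only from transplanted animals and at stated times after induction. All other KLS and GMP samples have a time. By elimination, the untimed libraries would be those of transplanted animals, that is, donor cells sorted from irradiated recipients and prepared with the protocol for transplanted animals. The deletion in the Mx1Cre line is not limited to haematopoietic cells, and animal ages are not given in the labels. The tables gave 36 libraries with a known group, of which 32 entered the comparisons and 4 were WT libraries at 24 w.p.i. Multipotent progenitors, long-term stem cells and most libraries at 24 w.p.i. were not analysed here, since no label ties a genotype to their columns. Libraries without a replicate number are named by letters. The WT group of 1 KLS library at 3 w.p.i. (called unnumbered), of the GMP library of that animal and of the libraries at 24 w.p.i. was read from a control ending that tables of repeat elements attach to the animal's number. The groups of the Pu.1 line were read in the same way, from control and treatment endings. The genotypes of the other GMP columns at 3 w.p.i. follow from animal numbers that label KLS samples.

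Immediate early genes are transcribed without the need for newly made protein. Kinase cascades and cAMP signalling act on transcription factors that already sit at their promoters, and the messages are short-lived. In blood progenitors they respond to cytokines, to adhesion and to stress, and they are also known to respond to tissue dissociation and cell sorting. Fos, Fosb, Jun, Junb and Atf3 encode basic leucine zipper proteins, and pairs of Fos and Jun family proteins form the transcription factor AP-1. Egr1 and Klf6 encode zinc finger transcription factors, and Nr4a1 an orphan nuclear receptor. Ier2 encodes a small nuclear protein, and Dusp1 a phosphatase that switches off MAP kinases.

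RefSeq promoter windows on GRCm38.p6 were matched for 8 of the 10 genes, all but Egr1 and Ier2. The 250 bases before the annotated start are shown, 5′ to 3′ on the strand of the gene, for Fos, Fosb and Dusp1, which were clearly higher in untimed Daxx-KO GMPs, for Jun, whose rise there was the smallest of those that passed the test, and for Nr4a1, which did not pass it. Capitals mark motif matches: TGACGTCA, its part TGACG, TGACATCA (all on both strands) and, on the strand of the gene, TATAA.
Fos, chr12:85473640-85473889, plus strand: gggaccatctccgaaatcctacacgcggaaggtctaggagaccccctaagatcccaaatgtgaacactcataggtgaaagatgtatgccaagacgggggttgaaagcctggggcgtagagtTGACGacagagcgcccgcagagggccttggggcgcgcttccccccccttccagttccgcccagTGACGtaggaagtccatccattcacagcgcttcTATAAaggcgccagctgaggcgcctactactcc
Fosb, chr7:19310046-19310295, minus strand: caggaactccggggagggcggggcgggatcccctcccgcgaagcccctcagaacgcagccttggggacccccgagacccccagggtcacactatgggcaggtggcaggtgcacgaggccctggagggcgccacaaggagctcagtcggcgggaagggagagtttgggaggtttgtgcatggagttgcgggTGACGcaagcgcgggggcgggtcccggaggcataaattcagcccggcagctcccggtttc
Jun, chr4:95052223-95052472, minus strand: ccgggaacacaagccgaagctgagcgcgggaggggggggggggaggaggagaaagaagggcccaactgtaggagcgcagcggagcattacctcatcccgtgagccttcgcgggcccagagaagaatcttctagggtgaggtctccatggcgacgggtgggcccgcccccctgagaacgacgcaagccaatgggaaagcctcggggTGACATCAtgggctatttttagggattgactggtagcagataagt
Nr4a1, chr15:101266596-101266845, plus strand: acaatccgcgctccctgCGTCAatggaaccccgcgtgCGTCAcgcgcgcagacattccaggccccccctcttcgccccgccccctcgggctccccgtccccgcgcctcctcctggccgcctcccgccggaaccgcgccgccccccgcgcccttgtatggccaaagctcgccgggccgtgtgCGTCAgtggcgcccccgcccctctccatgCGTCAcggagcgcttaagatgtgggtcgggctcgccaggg
Dusp1, chr17:26508473-26508722, minus strand: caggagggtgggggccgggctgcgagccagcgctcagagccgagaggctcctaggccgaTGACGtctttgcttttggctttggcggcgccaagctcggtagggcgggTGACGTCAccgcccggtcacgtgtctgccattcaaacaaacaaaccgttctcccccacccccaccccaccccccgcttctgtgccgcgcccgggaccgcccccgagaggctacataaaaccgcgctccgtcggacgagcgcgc

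The windows shared little beyond the 5-base cAMP response half-site. TGACG, in either direction, was found in 6 of the 8 windows (Atf3, Fosb, Junb, Fos, Nr4a1 and Dusp1), against 17.8% of all 32851 promoters of the same length. The full cAMP response element TGACGTCA was found in Dusp1 alone of the 8, 143 to 136 bases before the start, against 1.55% of promoters, and it holds the half-site within it. Nr4a1 held 4 half-sites, between 233 and 36 bases before the start. TGACATCA, the element of the Jun promoter bound by Jun and Atf proteins, was found in Jun (45 to 38 bases before the start) and in Klf6, against 2.93%. TATAA was found in Fos, 33 to 29 bases before the start, as it was in 5255 of the 32851 promoters. No window held a CArG box, searched only as CC, 6 bases of A or T and GG, without mismatch. That form was present in 1.47% of promoters. The AP-1 site (TGACTCA or TGAGTCA), present in 4.46%, was also absent. Sequence farther upstream than the window, and any of Egr1 or Ier2, was not searched, so an absence here holds for these windows alone. All these matches are letters in a window and not measured sites.

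On the same build Fos lies at chr12:85473890-85477273, Fosb at chr7:19302696-19310051, Jun at chr4:95049034-95052222, Junb at chr8:84974484-84978718, Atf3 at chr1:191170296-191218039, Egr1 at chr18:34859823-34864984, Klf6 at chr13:5861482-5870394, Nr4a1 at chr15:101254269-101274795, Ier2 at chr8:84661331-84662852 and Dusp1 at chr17:26505590-26562128. The windows of Atf3, Nr4a1 and Dusp1 start from RefSeq starts that lie well inside the longer GENCODE gene, and those of Fosb and Klf6 run a few bases into it. Whether strand was used in counting is not given in the sources used here, and 3 members share exon bases with a neighbour: Jun 232 bases with the antisense transcript Junos, Junb 173 with Prdx2 and Dusp1 11 with Ergic1. Reads in those bases cannot be assigned to 1 gene.

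The deposited values were read counts divided by a size factor per library (normalised read counts below), and libraries held between 3388906 and 29335964 gene reads. Between tables, levels are given as reads per 1000000 gene reads of the library (RPM). Daxx fell to between 0.111 and 0.248 of the WT mean in the 4 comparisons of Daxx-KO with WT. Spi1 was not lost in the DKO or Pu.1-KO libraries (0.723 to 1.67 of the WT mean), so those genotypes rest on the labels, animal numbers and endings given above. In DKO KLS cells Spi1 was called higher than in WT (log2 fold change 0.76, limma adjusted p 0.016) and than in Daxx-KO (1.03, limma adjusted p 0.0035). In the other comparisons of DKO or Pu.1-KO with WT it was not called. The markers of KLS cells and GMPs separated the 2 populations in WT, with summed stem and progenitor markers at 2693 to 5151 RPM in KLS cells and 482 to 825 in GMPs. Replicates are separate samples per the labels, and where nothing says that they came from separate animals the p-values measure only the spread between libraries. In bulk RNA, fewer cells of a type and less RNA per cell cannot be told apart.

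The genotypes differed most in untimed GMPs, where 9 of the 10 genes were higher in Daxx-KO than in WT at an adjusted p under 0.05 (limma over 12744 genes, 2 libraries per group, from animals whose transplantation status the labels do not give). The background was 33.0% of genes called, 16.6% called higher. The median log2 fold change of the 10 genes was 1.96, beside −0.01 over all genes tested. The same 9 genes had both Daxx-KO libraries above both WT libraries, which was so for 33.1% of genes.

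Among the AP-1 genes, Fos stood at 539 and 759.9 normalised read counts in the WT libraries and at 1946 and 3796 in the Daxx-KO libraries (log2 fold change 2.09, SE 0.27, limma adjusted p 0.00047). Fosb was 666 and 933 in WT against 3017 and 4293 in Daxx-KO (2.19, SE 0.19, limma adjusted p 5.4e-05). Both genes separated the genotypes without overlap, and within each genotype the second library was the higher. Junb, an AP-1 partner that is often weaker in activation than Jun, was 169 and 252 against 641 and 544 (1.51, SE 0.19, limma adjusted p 0.00041), and here the first Daxx-KO library was the higher. Jun itself moved least, from 580.2 and 565 to 708 and 1191 (0.68, SE 0.20, limma adjusted p 0.030). The first Daxx-KO library lay near the WT level of Jun and the second accounted for most of the difference. Jun lost its call without WT library 1, without WT library 2, without Daxx-KO library 2, under DESeq2 and on the RPM scale, with adjusted p values up to 0.17 over all alternatives. Atf3, a stress-induced member of the ATF family, was low throughout, at 26.0 and 43.4 in WT and at 93.3 and 202 in Daxx-KO (2.00, SE 0.40, limma adjusted p 0.0049). It kept no overlap between genotypes, but was not called without WT library 1 (limma adjusted p 0.058).

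Egr1 had the widest separation of the 10 genes. It was at 119.7 and 148 normalised read counts in WT GMPs and at 961 and 1801 in Daxx-KO GMPs, a ratio of means of 10.3 (3.29, SE 0.25, limma adjusted p 3.3e-05). Even the lower Daxx-KO library lay several times above the higher WT library. Klf6 was 503 and 469.9 against 1304 and 3624 (2.16, SE 0.36, limma adjusted p 0.0018), with close WT libraries and widely spread Daxx-KO libraries. Nr4a1 was the exception, at 11.7 and 22.6 in WT and 12.2 and 10.2 in Daxx-KO (−0.51, SE 0.60, limma adjusted p 0.57). On RPM both Daxx-KO libraries of Nr4a1 lay below both WT libraries, as did 41.8% of genes. The values of Nr4a1 rest on 6 to 25 reads per library, so its fold change was poorly determined.

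Ier2 was 277 and 344 in WT GMPs and 667 and 769 in Daxx-KO GMPs (1.21, SE 0.14, limma adjusted p 0.00026), with the smallest standard error of the 10 genes. Dusp1 was 186 and 260.2 against 629 and 1104 (1.92, SE 0.25, limma adjusted p 0.00049). Both separated the genotypes without overlap.

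**Figure D1:**
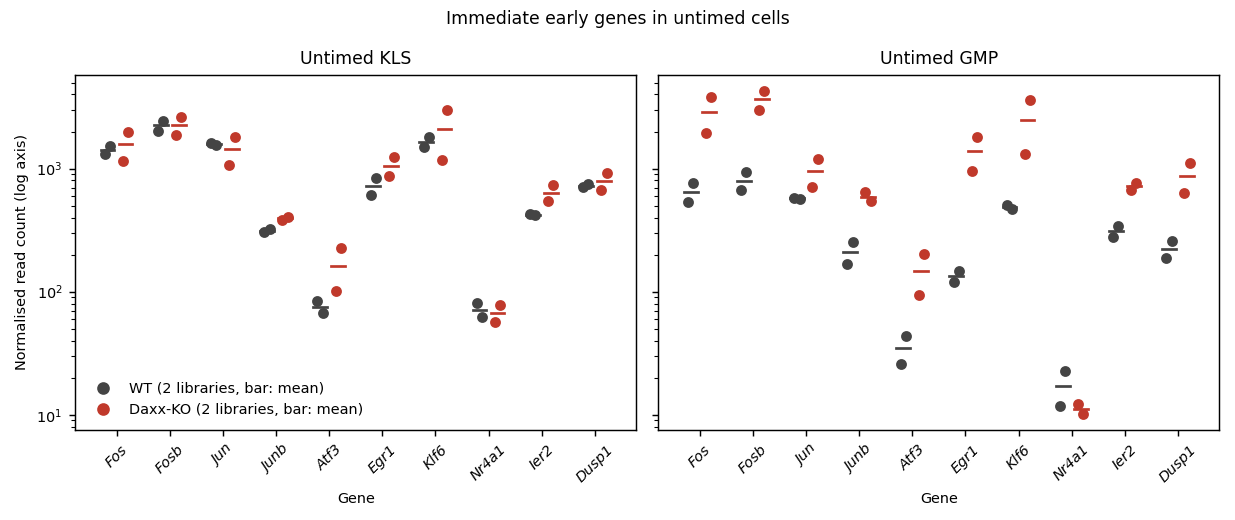
Normalised read counts (log axis) of the 10 genes in untimed KLS cells (left) and untimed GMPs (right), with 1 point per library and a bar at the mean of the 2 libraries of each genotype. In GMPs the Daxx-KO points lie above the WT points for 9 genes (Egr1 961 and 1801 against 119.7 and 148), whereas in KLS cells they overlap for 6.

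Other gene groups were read beside this rise, each from a list of genes grouped by function. Of 34 further early response genes, 27 were tested in untimed GMPs, and 16 were higher and 2 lower in Daxx-KO (median log2 fold change 1.09). Those higher included Dusp5 (2.03), which encodes a phosphatase of ERK, and Nfkbiz (1.95), which encodes a nuclear IκB protein. Klf4 (−2.82) and Dusp6 (−1.76) were the 2 lower. Of 11 heat shock genes tested, 7 were higher, among them Dnaja1 (2.01) and Dnajb1 (1.64), and Hspd1 (−0.68) and Hsp90ab1 (−0.36) were lower. The kinases and transcription factors upstream of immediate early genes moved little, with 1 of 16 tested called, Braf (0.76). Of 4 tested genes that encode repressors of the members, Nab2 (1.54), a corepressor of Egr proteins, and Jdp2 (0.37) were higher.

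Markers of mature cells also moved with genotype in these libraries. The summed level of 10 neutrophil markers was 737 to 1034 RPM in WT and 5104 to 7156 in Daxx-KO, with S100a9, S100a8, Lcn2 and Ngp called higher and Camp, Cxcr2 and Mmp8 called lower. Summed monocyte and macrophage markers were 419 to 451 in WT and 214 to 216 in Daxx-KO, with 3 genes called each way of 6 tested. Summed GMP markers were 10937 to 11018 in WT and 10122 to 10687 in Daxx-KO. Depth differed too: the Daxx-KO libraries held 3388906 and 17307510 reads and the WT libraries 4938629 and 7067939. The part of these differences in the levels of the immediate early genes was not tested.

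The rise in untimed Daxx-KO GMPs could be set against every WT GMP library in the data. Those include the untimed WT libraries of the test itself. The members' WT levels also differed between tables, with median ratios to 3 w.p.i. of 3.13 untimed, 4.81 in the Pu.1 line and 1.98 at 24 w.p.i. On RPM, both Daxx-KO libraries lay above all 9 WT GMP libraries for 7 members (Egr1, Fos, Fosb, Junb, Klf6, Ier2 and Dusp1), which was so for 14.8% of genes tested. Egr1 was at 140 and 255 RPM in the 2 Daxx-KO libraries and between 1.40 and 23.2 in the WT libraries. Jun (103 and 169) stayed below the highest WT library, at 350.0 RPM in the Pu.1 line, and Atf3 (13.6 and 28.7) overlapped a WT maximum of 26.0. In KLS cells none of the 10 genes lay above all 9 WT libraries in both untimed Daxx-KO libraries, against 10.3% of genes.

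In untimed KLS cells 1 of the 10 genes, Ier2, passed the test between Daxx-KO and WT (limma over 13508 genes, 2 libraries per group). The background was 23.1% of genes called, 10.6% called higher. The median log2 fold change of the members was 0.16, beside 0.03 over all genes. Ier2 was 428 and 417 normalised read counts in WT and 544 and 734 in Daxx-KO (0.58, SE 0.16, limma adjusted p 0.031). That call was lost in each of the 4 fits that left out a library and without the filter on low values, with adjusted p values from 0.0098 to 0.31.

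Besides Ier2, 3 genes had both Daxx-KO libraries above both WT libraries and an unadjusted p under 0.05 without passing the adjusted threshold, where 32.9% of all genes were higher without overlap. Egr1 was 611 and 834 in WT against 877 and 1240.3 in Daxx-KO (0.55, SE 0.19, limma adjusted p 0.077). Atf3 was 84.3 and 67.2 against 101 and 225 (0.99, SE 0.37, limma adjusted p 0.087), a difference that lay mostly in the second Daxx-KO library. Junb was 306 and 320.4 against 385 and 401 (0.33, SE 0.13, limma adjusted p 0.12).

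The remaining 6 genes overlapped between genotypes in untimed KLS cells, and in each of them the Daxx-KO libraries were more unlike each other than the WT libraries were. Fos was 1314 and 1536 in WT and 1163 and 1979 in Daxx-KO. Klf6 was 1493 and 1793 against 1177 and 3007. The first Daxx-KO library thus lay below and the second above both WT libraries, a layout also seen in Fosb (2037 and 2441 against 1889 and 2605), Jun (1610.2 and 1559 against 1069 and 1797) and Dusp1 (702 and 746 against 668 and 924). Nr4a1 was 80.9 and 62.0 against 56.9 and 77.9, inside or just below the WT range. Daxx-KO library 2 was higher than Daxx-KO library 1 for all 10 genes, and it was the deeper, with 22647397 reads against 6343790.

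Other early response genes moved in both directions in untimed KLS cells, with 6 higher and 2 lower of 29 tested (median 0.35). Ier3 (1.19) and Klf10 (0.92) were among those higher, and Dusp6 (−1.60) and Sik1 (−0.60) were lower. Heat shock genes were higher for 8 of 11 tested, with Hspa1a at 1.70 and Hspa1b at 1.41, and none was lower. Upstream, Rps6ka3 was higher (0.33) and Rps6ka1 lower (−0.43) among 16 tested genes. Among genes for repressors of the members, Nab2 was higher (1.47) and Jdp2 lower (−1.15).

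Cell type markers also differed between genotypes. Of 8 stem and progenitor markers, 7 were lower and Ly6a (Sca-1) was higher in Daxx-KO, and their sum was 4134 to 4214 RPM in WT and 827 to 880 in Daxx-KO. Summed GMP markers were 1362 to 1385 in WT and 2276 to 2803 in Daxx-KO. Neutrophil markers stood apart in WT library 1, at 931 RPM against 5.58 in WT library 2, in which Lcn2, Retnlg, Mmp8, Mmp9 and Cxcr2 were at 0. Whether the make-up of the sorted cells bears on the members' levels was not tested.

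At 3 w.p.i. the 3 comparisons within each population share groups, since WT, Daxx-KO and DKO were fitted together. In KLS cells limma called none of the 10 genes for Daxx-KO against WT (3 libraries each, 15200 genes). The background was 0.257% of genes called, and 1777 genes and 2 members had an unadjusted p under 0.05. DESeq2 called 342 genes and none of the members. The members' median log2 fold change was −0.46 and 3 of the 10 genes had a fold change above 0.

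The 2 genes with an unadjusted p under 0.05 were Fos and Fosb. Fos was 112, 64.6 and 48.1 in Daxx-KO, against 187, 309.8 and 88.0 in WT (−1.28, SE 0.52, limma adjusted p 0.39). Fosb was 57.7, 15.3 and 10.5 against 78.9, 264 and 37.0 (−2.07, SE 0.81, limma adjusted p 0.39). The groups overlapped for both, and in WT the second library was the highest and the unnumbered library the lowest. Jun followed the same order in WT (379, 707 and 175) and overlapped with Daxx-KO (205, 344 and 134). The WT libraries of Atf3 ranked differently, at 41.1, 26.5 and 18.0, and the lowest of them lay within the Daxx-KO range (18.1, 16.1 and 12.6). Egr1 was 236, 126 and 152 in Daxx-KO, against 258, 216 and 86.0 in WT. Dusp1 was 118, 137 and 148 against 246, 246 and 109. In these genes the unnumbered WT library was the lowest of all WT libraries, as it was for Junb (174 against 224 and 248), Klf6 (367 against 495 and 523), Ier2 (242 against 449.6 and 339) and Nr4a1 (51.0 against 71.3 and 85.6). The Daxx-KO libraries of these 4 genes overlapped with WT, at 221, 306 and 232 for Junb, 242, 415 and 385 for Klf6, 352, 395 and 336 for Ier2 and 57.7, 108 and 91.0 for Nr4a1.

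The DKO libraries gave more separation. Between DKO and WT KLS cells at 3 w.p.i., 1 of the 10 genes passed the test, Fos, which was lower. The background was 17.6% of genes called, 8.40% called lower. Fos was 28.7 and 59.8 normalised read counts in the 2 DKO libraries, below all 3 WT libraries (−2.03, SE 0.58, limma adjusted p 0.038). The call was lost without WT library 1, without WT library 2, without DKO library 1, without the filter on low values and when the 2 groups were fitted alone, and adjusted p values ran from 0.0026 to 0.28.

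Egr1, Dusp1, Nr4a1 and Atf3 also had both DKO libraries below all WT libraries, which with Fos made 5 members, beside 23.7% of all genes. Egr1 was 72.8 and 44.3 in DKO (−1.55, SE 0.49, limma adjusted p 0.055 against WT). Dusp1 was 40.2 and 109 (−1.49, SE 0.48, limma adjusted p 0.058), its higher DKO library at 108.906 against a lowest WT library of 109.046. Nr4a1 was 39.3 and 13.5 in DKO against 71.3, 85.6 and 51.0 in WT (−1.51, SE 0.53, limma adjusted p 0.076). Atf3 was 12.5 and 11.6. Klf6 and Ier2 went the other way, with both DKO libraries above all WT libraries, as for 26.0% of genes. Klf6 was 849.8 and 708 in DKO against 495, 523 and 367 in WT (0.76, SE 0.26, limma adjusted p 0.071), and Ier2 was 622 and 452 against 449.6, 339 and 242 (0.67, SE 0.27, limma adjusted p 0.11). Fosb (20.1 and 46.3), Jun (137 and 241) and Junb (220.4 and 231) overlapped with WT in DKO. On the RPM scale Ier2 overlapped as well, and Egr1 was called (limma adjusted p 0.044).

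Between DKO and Daxx-KO KLS cells, 2 members passed the test in opposite directions, where 15.4% of genes were called, 8.17% higher and 7.22% lower. Klf6 and Ier2 were higher and Egr1, Atf3, Dusp1 and Nr4a1 lower in DKO without overlap, as 22.3% of genes were in each direction. Klf6 was 242, 415 and 385 in Daxx-KO, below both DKO libraries (1.19, SE 0.26, limma adjusted p 0.014), and lost the call without DKO library 1 (limma adjusted p 0.14). Nr4a1 was 57.7, 108 and 91.0 in Daxx-KO, above both DKO libraries (−1.79, SE 0.53, limma adjusted p 0.047). The Nr4a1 call was kept in 5 of 13 alternatives and was lost without DKO library 2, without each Daxx-KO library, under edgeR, with a replicate block, without the filter and with the 2 groups alone.

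Other early response genes were split in DKO KLS cells as well, with 3 higher and 3 lower than WT of 29 tested. Trib1 (2.16) and Rhob (1.68) were higher, and Fosl2 (−2.46), a Fos family gene, and Dusp5 (−1.14) were lower. No heat shock gene of 10 was called, and upstream genes were called 2 each way of 18. Of 4 tested repressor genes Jdp2 was higher (1.00). The DKO libraries held far more neutrophil signal than the others, at 10127 to 11203 RPM summed over 10 markers against 41.8 to 2146 in WT and 76.7 to 466 in Daxx-KO. Their GMP markers summed to 7564 to 8736 against 1789 to 4358 in WT. The part of these cell type markers in the members' levels was not tested.

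In GMPs at 3 w.p.i. none of the 10 genes was called by limma over 13714 genes in any of the 3 comparisons, which called 0.0948% of genes for Daxx-KO against WT, 0.292% for DKO against WT and 0.0583% for DKO against Daxx-KO. The numbers of genes with an unadjusted p under 0.05 were 433, 961 and 1104. The corresponding numbers of members were 2, 0 and 2. DESeq2 called 1 member in 1 of these comparisons, Fosb, lower in Daxx-KO than in WT. The members' median log2 fold changes were −0.72, −0.20 and 0.54 in that order.

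Fosb was nearly absent in Daxx-KO GMPs, at 2.93, 8.55 and 3.95 normalised read counts or 3 to 9 reads, and spread widely in WT, at 39.5, 199 and 4.35 (−2.62, SE 1.10, limma adjusted p 1.00). The lowest WT library lay within the Daxx-KO range. Junb was 238, 164 and 207 in Daxx-KO against 265, 311 and 282 in WT (−0.50, SE 0.22, limma adjusted p 1.00), the single member without overlap, as 3.46% of genes were lower without overlap. The direction of Junb in these GMPs was opposite to that in untimed GMPs. Egr1, which rose most in untimed GMPs, was 30.3, 54.2 and 25.7 in Daxx-KO, against 24.9, 135 and 18.5 in WT (−0.19, SE 0.81). Fos was 79.1, 98.8 and 65.2 against 136, 266 and 86.0, and Klf6 473, 800.3 and 451 against 1134, 545 and 1157.

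WT library b of the GMPs at 3 w.p.i. stood out in opposite directions for different genes. It was the highest of the 3 WT libraries for Jun (164, 456 and 53.3), Atf3 (26.0, 69.7 and 9.79), Dusp1 (73.8, 116 and 54.4), Fos, Fosb, Egr1, Junb and Nr4a1 (38.4, 51.2 and 32.6), and the lowest for Klf6 and Ier2 (677, 464 and 651). In DKO GMPs, Junb (288 and 361), Klf6 (1099 and 941), Jun (257 and 198) and Fosb (21.3 and 15.8) lay above all 3 Daxx-KO libraries, as 10.7% of genes did. Junb (0.68, SE 0.24, limma adjusted p 0.46) and Klf6 (0.87, SE 0.36, limma adjusted p 0.56) were the 2 with an unadjusted p under 0.05. Of the other early response genes 1 of 27 was called between DKO and Daxx-KO, Trib1 (2.54). Summed neutrophil markers ran from 3256 to 23679 RPM in Daxx-KO and from 4830 to 23287 in WT.

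**Figure D2:**
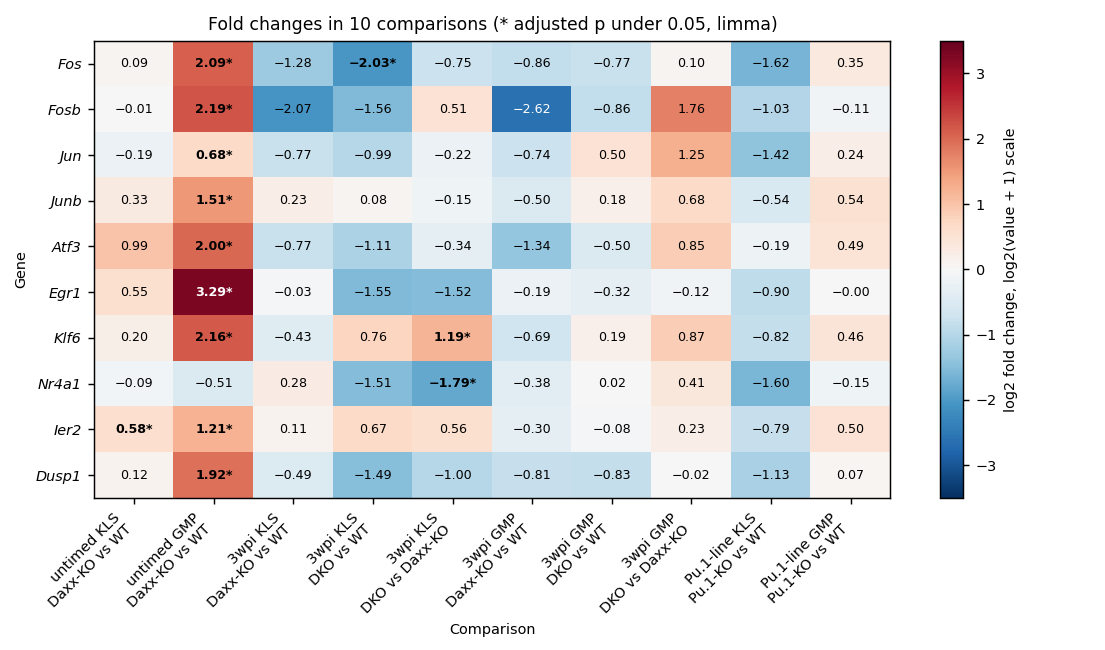
Log2 fold change of each gene (rows) in each of the 10 comparisons (columns), on the log2(value + 1) scale, as a colour, with an asterisk where the limma adjusted p is under 0.05. Of the asterisks, 9 lie in the column of untimed GMPs and 4 in the 9 other columns.

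In the Pu.1 line the number of genes without overlap in KLS cells depended on how libraries were scaled. On the deposited values 9 of the 10 genes, all but Atf3, had both Pu.1-KO libraries below both WT libraries, beside 31.9% of genes, and the median log2 fold change was −0.96 against 0.12 over all genes. On RPM the number was 4 (Fos, Jun, Dusp1 and Nr4a1), beside 22.6% of genes, and the median log2 fold change of all genes moved to 0.57. The log2 fold change stayed below 0 on RPM for 9 of the 10 genes and was 0.28 for Atf3. None of the 10 was called by limma on either scale. On the deposited values 0.810% of 23459 genes were called, and 6071 genes and 2 members had an unadjusted p under 0.05, whereas DESeq2 called 1 member, Nr4a1.

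Nr4a1 was 786 and 729 normalised read counts in the WT KLS libraries of the Pu.1 line and 301 and 207 in Pu.1-KO (−1.60, SE 0.58, limma adjusted p 0.088). Fos was 6963 and 5867 against 3275 and 1327 (−1.62, SE 0.70, limma adjusted p 0.14). Both stayed without overlap on RPM. Jun was the most abundant of the 10 here, at 12626 and 13945 in WT and 9145 and 2693 in Pu.1-KO (−1.42, SE 0.84, limma adjusted p 0.25). Pu.1-KO library a lay close to WT for several genes, such as Egr1 (2052 and 2291 in WT, 1963 and 690.0 in Pu.1-KO) and Fosb (5580.2 and 4919 against 4395 and 1503). Library a was above library b for all 10 genes. Without library a 8 members were called lower, with 7946 genes in all, and without any other library none was. Summed neutrophil markers were 1512 to 2233 RPM in WT and 5492 to 8272 in Pu.1-KO.

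In Pu.1-line GMPs none of the 10 was called on the deposited values either, where 17.6% of 19337 genes were, and 3 of them and 6571 genes had an unadjusted p under 0.05. Junb was 483 and 559 in WT against 705 and 809 in Pu.1-KO (0.54, SE 0.25, limma adjusted p 0.11). Ier2 was 944 and 1272 against 1396 and 1718 (0.50, SE 0.24, limma adjusted p 0.12). Klf6 was 1158 and 1333 against 1615 and 1819 (0.46, SE 0.24, limma adjusted p 0.15). These 3 were higher without overlap, as 31.5% of genes were, and Fosb was lower without overlap (989 and 989.7 against 986 and 848), as 33.5% of genes were. On RPM 7 members were higher without overlap, beside 39.5% of genes, and none was lower. On that scale 6 were called (Fos, Jun, Junb, Klf6, Ier2 and Atf3), beside 2813 of 19337 genes. The median log2 fold change of all genes was 0.23 on RPM and −0.002 on the deposited values. Fos was 1984 and 2318 against 2308 and 3258, and Egr1 178 and 218 against 152 and 253 on the deposited values. Summed neutrophil markers rose here from 2117 to 2798 up to 13010 to 16392 RPM, with 9 of 10 called higher, and 5 of 10 heat shock genes were lower, among them Hspa1b (−2.46).

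The level of these genes in WT cells differed between the deposited tables. On RPM, all 10 were higher in untimed than in 3 w.p.i. WT KLS cells, with a median ratio of 7.06 and a range from 2.03 for Nr4a1 to 34.7 for Fosb. The Pu.1-line WT KLS cells, also at 3 w.p.i., were higher for all 10 as well, with a median ratio of 8.35 (4.36 for Junb to 30.4 for Fosb). At 24 w.p.i. the median ratio was 2.59, with Fos at 56.4 and 49.7 RPM in the 2 WT KLS libraries and Jun at 269 and 229. The 3 w.p.i. WT KLS libraries held 14.1, 23.5 and 6.63 for Fos and 28.6, 53.7 and 13.2 for Jun. Over all genes the median log2 ratios of these WT levels lay between −0.07 and 0.20. In GMPs the ratios to 3 w.p.i. were smaller, with medians of 3.13 untimed, 4.81 in the Pu.1 line and 1.98 at 24 w.p.i. Nr4a1 was below its 3 w.p.i. level in untimed GMPs (ratio 0.837), and Nr4a1, Klf6 and Junb were below it at 24 w.p.i. Table, time, line, transplantation and protocol cannot be told apart in these ratios, which were not tested.

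**Figure D3:**
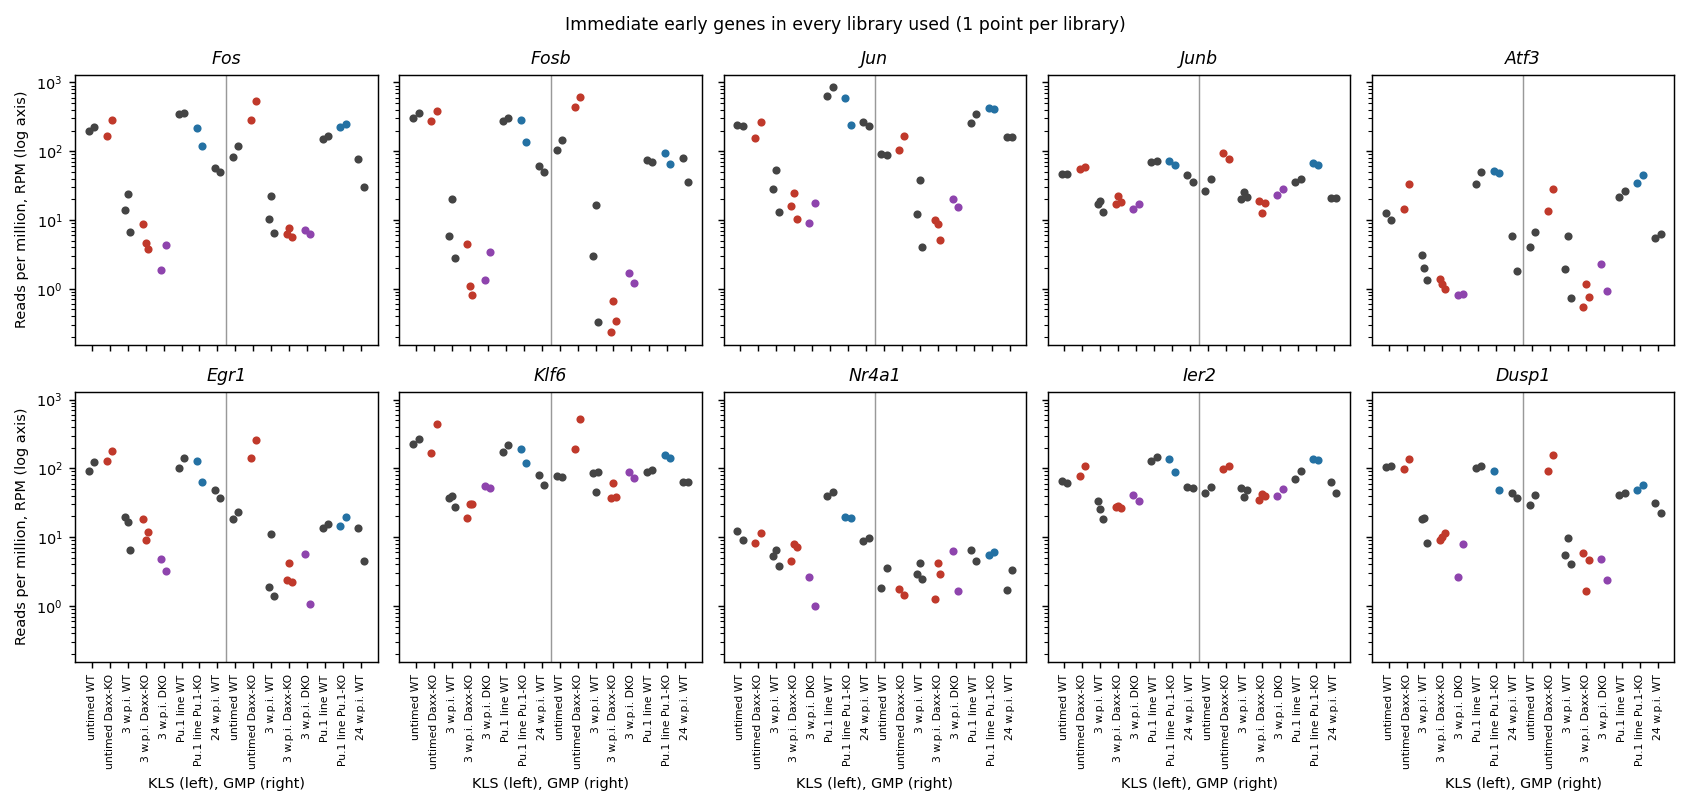
RPM (log axis) of each gene, 1 panel per gene and 1 point per library, with KLS cells on the left and GMPs on the right of the line and the groups in order of table. Fosb in WT GMPs runs from 0.328 to 146 RPM, whereas Junb in the same libraries stays between 19.97 and 40.0.

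Over the 9 WT libraries of each population, pooled over tables, the members ranged to unequal extents. Fosb ranged 445-fold in GMPs, from 0.328 to 146 RPM, and 129-fold in KLS cells, from 2.79 to 359. Jun ranged from 4.02 to 350.0 in GMPs, Fos from 6.48 to 166, Atf3 from 0.739 to 26.0 and Egr1 from 1.40 to 23.2. Junb (19.97 to 40.0), Klf6 (45.1 to 95.4) and Ier2 (38.5 to 91.0) ranged 2.00-, 2.11- and 2.37-fold in GMPs, less than the median gene. Dusp1 (10.7-fold) and Nr4a1 (3.90-fold) lay in between. In KLS cells Junb, Klf6 and Ier2 ranged more than the median gene, as did the other 7.

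Per kilobase of transcript, so that genes could be compared, the order of levels also differed between tables. In untimed WT KLS cells the highest were Fos (90.2 RPM per kilobase), Jun (74.0), Klf6 (55.7) and Fosb (53.4), and the lowest Atf3 (5.24) and Nr4a1 (3.04). At 3 w.p.i. Ier2 was the highest in WT KLS cells (17.1), followed by Jun (9.98) and Klf6 (7.95), and Fosb was among the lowest (1.54). Ier2 was again the highest in WT GMPs at 3 w.p.i. (30.4), followed by Klf6 (16.5), with Fosb at 1.06. Jun was the highest in WT cells of the Pu.1 line, at 234 in KLS cells and 95.0 in GMPs.

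The ratio of Fosb to Fos reads varied between tables and, in some tables, between genotypes. It was 1.32 to 1.62 in untimed KLS cells and 1.131 to 1.55 in untimed GMPs, whereas it was 0.217 to 0.852 in KLS cells and 0.0370 to 0.751 in GMPs at 3 w.p.i., genotypes pooled. In WT cells at 24 w.p.i. it was 1.00 to 1.09 in KLS cells and 1.02 to 1.161 in GMPs. In the Pu.1 line it was 0.801 to 1.34 in KLS cells and 0.260 to 0.499 in GMPs. Within the Pu.1-line KLS table both WT libraries (0.801 and 0.838) lay below both Pu.1-KO libraries (1.34 and 1.132). In GMPs at 3 w.p.i. the Daxx-KO libraries (0.0370 to 0.0865, from 3 to 9 Fosb reads) lay below the DKO libraries (0.195 and 0.236). The WT libraries there (0.290, 0.751 and 0.0506) ran from within the Daxx-KO range to above the DKO libraries. These differences in the ratio were not tested.

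Among genes that passed the filter, replicates of 1 group differed more for most of these genes than for the median gene in untimed cells and at 3 w.p.i. The members' median within-group SD on the log2 scale was 1.66 times the all-gene median in untimed KLS cells, 2.80 times in untimed GMPs. In cells at 3 w.p.i. it was 1.92 times for KLS cells and 2.15 times for GMPs. In the Pu.1 line the ratio was 1.02 in KLS cells and 0.897 in GMPs, and in WT cells at 24 w.p.i. it was 1.05 and 1.39. The members' median SD itself was 0.618 in Pu.1-line KLS cells and 0.612 in KLS cells at 3 w.p.i. The all-gene median SD was 0.608 in the first and 0.319 in the second. Of the 80 pairs of a gene and a table, 55 lay above the all-gene median, and 34 when genes of low level were kept in the comparison.

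**Figure D4:**
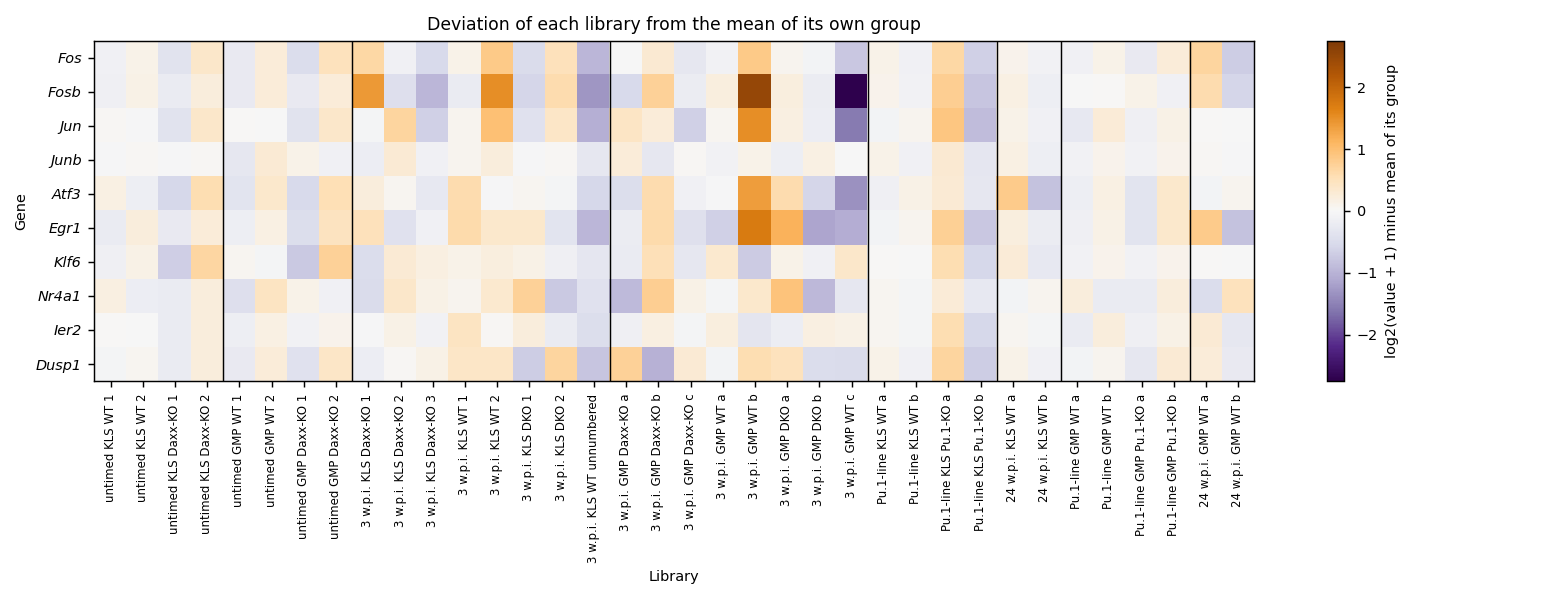
Deviation of each library from the mean of its own group on the log2(value + 1) scale, as a colour, for the 10 genes (rows) in the 36 libraries (columns). In untimed KLS cells, Daxx-KO library 2 is above Daxx-KO library 1 for all 10 genes, and in Pu.1-line KLS cells Pu.1-KO library a is above library b for all 10.

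The members deviated together within groups to an unequal extent. Over the 36 libraries, with group means taken out, the 45 pairs of genes had a median Pearson correlation of 0.38 (−0.08 to 0.85). The strongest were Fos with Fosb (0.85), Fosb with Jun (0.81), Fos with Jun (0.80) and Egr1 with Atf3 (0.77). Correlation with the mean of the other 9 genes was highest for Fos (0.85), Jun (0.84) and Egr1 (0.80) and lowest for Klf6 (0.22), Nr4a1 (0.29), Ier2 (0.36) and Junb (0.37). The median pair correlation was 0.57 in the 18 KLS libraries and 0.11 in the 18 GMP libraries, and it was 0.28 without the 2 Pu.1-KO KLS libraries. Libraries of 1 table share their scaling, and libraries of a group of 2 deviate by equal amounts in opposite directions, so these values are a description.

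The genes whose deviations were most like the members' mean were sought among 8868 genes with a mean of at least 50 normalised read counts. The first were Afap1l1 (Pearson correlation 0.83), Chd6 (0.81), Hmga2 (0.81), Dab2ip (0.80) and Arhgap35 (0.80), over 36 libraries. The median over all genes searched was 0.22, and 14.8% were above 0.5. Of 17 other early response genes among them, 6 were above 0.5, with Nfkbiz (0.69) and Nr4a2 (0.67) the highest.

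The columns of KLS cells and GMPs carry animal numbers, so that both populations of 1 animal could be set side by side, as the mean deviation of the 10 genes from their group. At 3 w.p.i. 4 of 8 animals deviated the same way in both populations. The widest were a pair of WT animals: WT library 2 in KLS cells was 0.48 above its group mean and WT library b of the same animal in GMPs 0.80 above, and the unnumbered KLS library and WT library c were 0.71 and 0.77 below. In the Pu.1 line 0 of 4 animals deviated the same way, and Pu.1-KO library a was 0.58 above in KLS cells and 0.19 below in GMPs. At 24 w.p.i. 2 of 2 did. Animals of a group are not independent in these deviations, and how they were handled is not given in the labels.

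**Figure D5:**
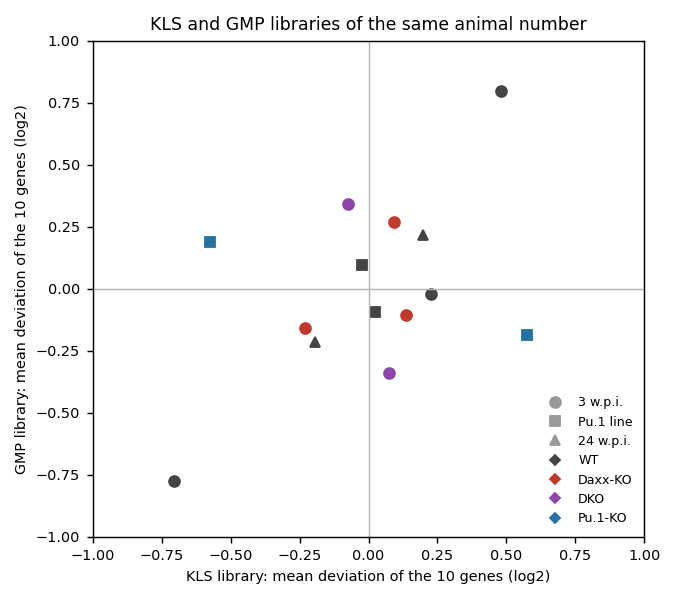
Mean log2 deviation of the 10 genes from the group mean in the KLS library (horizontal axis) and the GMP library (vertical axis) of the same animal number, with 1 point per animal, coloured by genotype and shaped by table. A pair of WT animals at 3 w.p.i. lies farthest out in the upper right (0.48, 0.80) and lower left (−0.71, −0.77), whereas the Pu.1-line animals lie in the other 2 quadrants.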

How the data were processed

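RNA was taken from sorted KLS cells and GMPs. Per the study's methods and the submitters' processing notes, reads were trimmed with cutadapt 1.13, aligned to mm10 with STAR 2.5.3 and normalised with DESeq2 1.16.1. The deposited signal values are gene read counts that the authors divided by a size factor for each library. Every value was a whole multiple of 1 read (100% within 0.01 read), so reads were recovered. Because the files held no raw counts, the planned test was limma 3.58.1 on log2(value + 1), for genes with a mean of at least 10, with Benjamini-Hochberg adjustment over all genes of a table, a threshold of 0.05 and all groups of a table in 1 fit. Fold changes are on that scale and understate those of low genes. Alternatives were a pseudocount of 0.5, no filter, TMM scaling, edgeR 4.0.16 and DESeq2 1.42.0 on recovered reads, leaving out each library, only the groups compared and a replicate block. Values per 1000000 reads (RPM) and a block with crossed numbers were added after the data were seen. Scripts were tested on simulated data. Depth was 3388906 to 29335964 reads per library. Groups came from the labels, and columns were matched to them by name, animal number or a control or treatment ending. Of 111 columns of per-sample values in the deposited tables, 75 were not used. The named genes were the 10 members and, from each other list, the called genes with the largest fold changes in either direction. The members and lists were chosen with earlier results of these data known.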

Additional observations from a re-analysis of the deposited data

Results flagged for a closer look

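The difference in direction between populations or tables was not tested for any of the genes below. In the Pu.1 line, both Pu.1-KO libraries lay below both WT libraries in KLS cells and above them in GMPs for 3 genes. These were Ier2 (log2 fold change −0.79 in KLS cells and 0.50 in GMPs), Junb (−0.54 and 0.54) and Klf6 (−0.82 and 0.46). On the RPM scale none of the 3 was without overlap in KLS cells, while all 3 stayed higher in GMPs. Junb was also higher in Daxx-KO than in WT in untimed GMPs (1.51) and lower in GMPs at 3 w.p.i. (−0.50), without overlap in either, and the limma adjusted p of the second was 1.00.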

How the results depend on the processing

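Over 120 alternatives, 1200 fold changes of members were recomputed. None that was called in both fits reversed, 25 lost their call and 49 gained one, and 64 changed sign without being called in either. In untimed GMPs 9 members were called under the block and 9 with crossed numbers, beside 3722 and 4921 of 12744 genes. The log2 fold change of Jun there ran from 0.31 to 1.06 over all alternatives. In untimed KLS cells the number of members called was 0 without the filter on low values, beside 1751 of 25008 genes. It was 2 under DESeq2 and 3 with the replicate block, beside 2969 and 3343 of 13508 genes. For DKO against WT KLS cells at 3 w.p.i. it was 0 without the filter, beside 2140 of 25807 genes. It was 2 on the RPM scale, 4 under DESeq2 and 4 with the block, beside 2709, 3400 and 2084 of 15200 genes. For DKO against Daxx-KO it was 1 without the filter (1958 of 25807 genes) and 1 under edgeR (2126 of 15200 genes). For Daxx-KO against WT GMPs at 3 w.p.i. it was 1 under DESeq2, beside 80 of 13714 genes. In the Pu.1 line it was 1 under DESeq2 and 0 to 8 when a library was left out in KLS cells, and 3 with TMM scaling, 6 on the RPM scale, 3 under edgeR, 1 under DESeq2 and 0 to 6 when a library was left out in GMPs. The cause of these changes was not tested.

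Correlations of same-numbered deviations ran from −0.21 to 0.13. They cannot decide whether replicate numbers pair the libraries, since libraries of a group of 2 deviate by equal amounts in opposite directions. For GMPs at 3 w.p.i. and the Pu.1 line no fit with a replicate block could be made, because their columns carry no replicate numbers. Where a group was left with 1 library, that library was assumed to vary like the other groups. Counts of genes called differed most for Pu.1-line KLS cells, at 190 in the limma fit, 788 with TMM scaling, 1920 with edgeR, 1357 with DESeq2 and 2 on the RPM scale. Daxx-KO against WT KLS cells at 3 w.p.i. gave 39 genes by limma and 342 by DESeq2, and the corresponding GMP comparison 13 and 80. Alternatives for the 24 w.p.i. genotypes, the multipotent progenitors and the long-term stem cells were not run. With 2 or 3 libraries a group and members at under 30 reads in some libraries, small differences were not detectable.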

Other observations

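Read ratios between related genes also varied by table. The ratio of Junb to Jun reads was 0.681 to 5.29 in GMP libraries at 3 w.p.i., whereas in Pu.1-line GMPs it was 0.114 to 0.162 and in WT GMPs at 24 w.p.i. 0.128 to 0.132. In KLS cells the ratio was 0.351 to 1.73 at 3 w.p.i. and 0.157 to 0.166 at 24 w.p.i. Genes with reads numbered 24539 to 30291 in the libraries of the Pu.1 line and 17066 to 22416 in the others.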
